A study of Rattus norvegicus with 84 samples.

Results

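The genes described here encode the splicing regulators of the SR, hnRNP, Rbfox, Celf, Mbnl, Nova and Ptbp families and the SF3A, SF3B and U2AF factors that recognise the 3′ splice site. They were taken by gene symbol: every row whose symbol starts with Srsf and a digit, Hnrnp, Sf3a or Sf3b and a digit, U2af or Celf and a digit, or is Rbfox1 to 3, Mbnl1 to 3, Nova1 or 2 or Ptbp1 to 3, with Hnrnpab left out. The rule found 56 genes in each of the 3 tables, among 15374 genes in the dentate gyrus (DG), 15706 in CA3 and 15553 in CA1. They are 11 SR protein genes, 17 hnRNP genes, 9 SF3A and SF3B subunits, 3 U2AF genes, 3 Rbfox, 6 Celf, 2 Mbnl, 2 Nova and 3 Ptbp genes.

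RNA was measured in male rats of the F344 strain, an inbred strain used in ageing research. Middle-aged rats of 12 months (16 rats) were set against young rats of 5 months (12 rats), with no treatment or allele named in the labels. Each rat gave 1 library from each of the DG, CA3 and CA1 of a single hemisphere, 84 libraries in all. The tissue was bulk, so fewer cells of a type and less RNA per cell cannot be told apart. The animal numbers fall into 2 runs that the labels do not call batches, the first with 10 rats of 12 months and 6 of 5 months and the second with 6 of each. Inside a run, rats of 1 age have consecutive numbers, so age and number block cannot be told apart there.

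Splicing removes introns and joins exons. SR proteins carry a domain rich in arginine and serine, bind mainly exonic enhancers and favour the use of nearby splice sites, while hnRNP proteins coat new transcripts and often repress exons. U2AF and the SF3A and SF3B subunits of the U2 snRNP recognise the end of the intron and the branch point. Rbfox, Celf, Nova, Ptbp and Mbnl proteins bind short RNA motifs and set which exons neurons include, many of them in genes of synapses and ion channels.

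Promoter sequences are shown for the genes that differed with age in the same direction in several subregions, described further on. They are the genes higher at 12 months in all 3 subregions (Srsf1, Srsf3 and Hnrnpa3) and those among the genes lower in at least 2 subregions that have an entry in the sequence table (Sf3a2 and Nova2). Each is the 250 bases before the annotated start, 5′ to 3′ on the gene's strand, from RefSeq on build GRCr8, which is not the build of the deposited tables. Capitals mark matches on either strand to CCAAT, to GGGCGG (GC box), to CCGGAAG (ETS core), to the NRF1 motif, to CACGTG (E-box) and to TATAAA; neighbouring matches can overlap.
Srsf1, chr10:73336248-73336497, plus strand: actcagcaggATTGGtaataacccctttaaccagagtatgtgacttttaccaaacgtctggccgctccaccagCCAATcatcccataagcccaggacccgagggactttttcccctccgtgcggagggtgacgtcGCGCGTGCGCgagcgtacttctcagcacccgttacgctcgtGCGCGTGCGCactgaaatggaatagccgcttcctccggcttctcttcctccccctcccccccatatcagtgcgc
Srsf3, chr20:7093335-7093584, plus strand: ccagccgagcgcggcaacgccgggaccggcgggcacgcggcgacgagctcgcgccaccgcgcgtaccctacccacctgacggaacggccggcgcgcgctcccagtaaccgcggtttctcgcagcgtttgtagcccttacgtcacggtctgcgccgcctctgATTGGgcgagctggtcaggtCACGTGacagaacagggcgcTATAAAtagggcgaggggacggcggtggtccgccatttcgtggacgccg
Hnrnpa3, chr3:80985684-80985933, plus strand: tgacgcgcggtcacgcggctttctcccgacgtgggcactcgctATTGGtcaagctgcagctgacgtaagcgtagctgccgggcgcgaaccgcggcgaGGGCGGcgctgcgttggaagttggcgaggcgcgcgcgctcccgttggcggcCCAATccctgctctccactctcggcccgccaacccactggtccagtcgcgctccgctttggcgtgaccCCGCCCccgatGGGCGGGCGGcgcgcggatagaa
Sf3a2, chr7:9566206-9566455, minus strand: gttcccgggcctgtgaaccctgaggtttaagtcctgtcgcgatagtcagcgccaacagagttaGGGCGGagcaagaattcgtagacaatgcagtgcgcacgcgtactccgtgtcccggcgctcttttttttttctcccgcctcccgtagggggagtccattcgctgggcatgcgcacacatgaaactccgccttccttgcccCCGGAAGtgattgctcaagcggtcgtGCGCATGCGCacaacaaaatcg
Nova2, chr1:87700078-87700327, plus strand: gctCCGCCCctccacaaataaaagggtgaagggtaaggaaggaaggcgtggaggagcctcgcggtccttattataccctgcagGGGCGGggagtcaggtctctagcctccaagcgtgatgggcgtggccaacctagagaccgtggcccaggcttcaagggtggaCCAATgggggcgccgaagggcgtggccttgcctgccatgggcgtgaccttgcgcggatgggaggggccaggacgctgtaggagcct

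Srsf1, Srsf3 and Hnrnpa3, the genes of that group that were higher at 12 months, each held at least 1 CCAAT match in this stretch, and so did Nova2. Sf3a2 held none and had 1 match each to the GC box, the ETS core and the NRF1 motif. The table gave 53 such stretches for 48 of the 56 genes. A CCAAT match was present in 49.1% of these 53, against 34.0% of all 33469 stretches in the table. For the GC box the shares were 69.8% and 30.5%, for the ETS core 20.8% and 7.27%, and for the NRF1 motif 15.1% and 3.75%. The E-box was found in 9.43% against 5.59%, TATAAA in 9.43% against 12.9%, the YY1 motif in 1.89% against 0.335% and the CRE motif in 3.77% against 1.59%. A CCAAT match was in 8 of 16 stretches of genes called higher in at least 2 subregions. For genes called lower in at least 2 it was in 1 of 2. Both are 50%, near the 49.1% of all 53 stretches. These are letter matches and were not tested as binding sites.

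With age, the SR and hnRNP genes that passed the test were nearly all higher at 12 months, while the neuronal regulators Rbfox3 and Celf4 were lower in all 3 subregions. Values are counts per gene divided by 1 size factor per library, called normalized counts. The age difference is the log2 of the value plus 1 at 12 months minus that at 5 months, tested with limma, with p adjusted over all genes tested and a threshold of 0.05. Sf3b6, a subunit at the branch point, averaged 0.331 CPM (counts per 1 M reads) in the DG and did not reach the minimum, so 55 of the 56 genes were tested in each subregion. In the DG, 22 were higher and 7 lower at 12 months. Of all 14526 genes tested there, 37.1% passed, 18.5% higher and 18.5% lower. In CA3, 11 were higher and 7 lower, against 10.9% and 10.8% of 14893 genes (21.7% in all). In CA1, 12 were higher and 6 lower, against 12.4% and 12.8% of 14685 genes (25.2% in all). As shares of the 55, these were 40.0% higher and 12.7% lower in the DG, 20% and 12.7% in CA3, and 21.8% and 10.9% in CA1, so the share that was lower was near or under that of all genes in each subregion. For the mean of each rat's 3 subregions, 25 were higher and 9 lower, or 45.5% and 16.4%, against 25.4% and 24.6% of 14291 genes (50% in all). With the mitochondrial share of reads as a covariate, 2 passed in CA1, and with the first run of rats alone 0 passed in the DG, 3 in CA3 and 2 in CA1, as described further on.

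**Figure D1:**
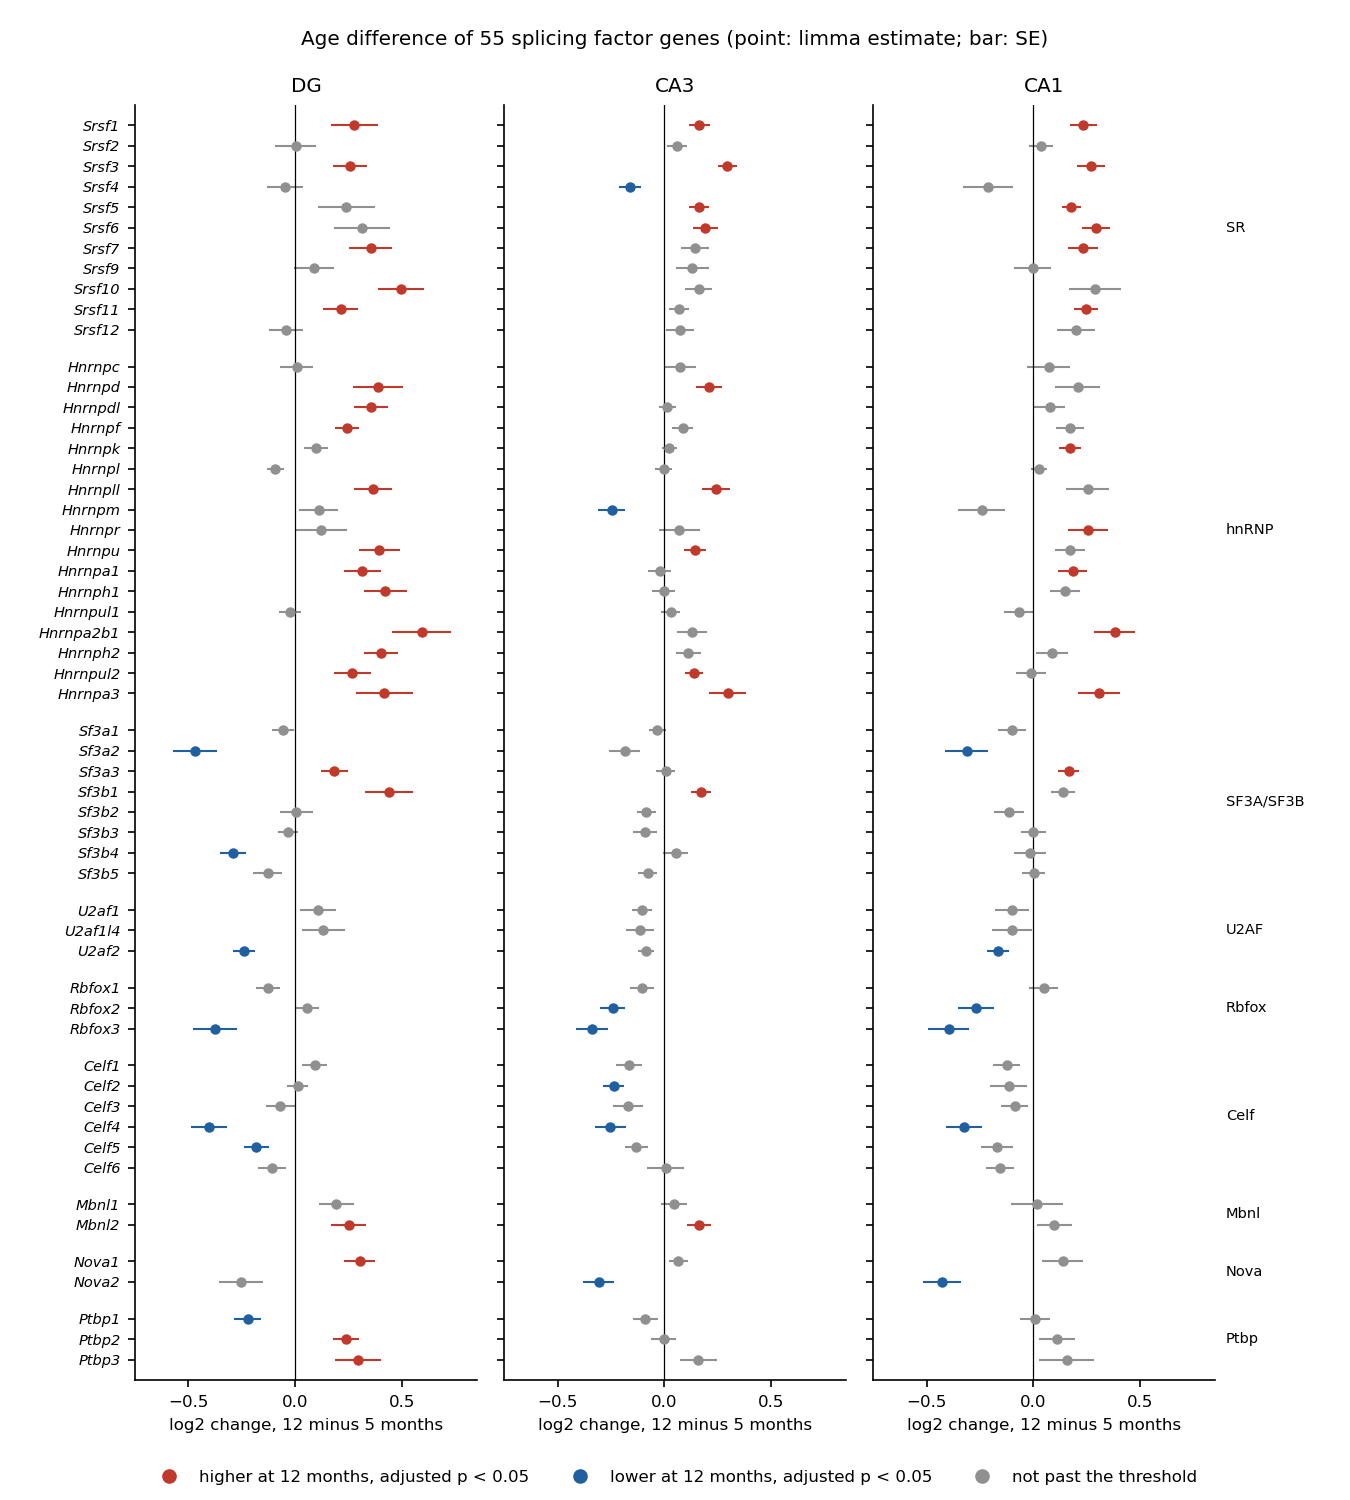
Age difference (log2, 12 minus 5 months, x axis) of the 55 tested splicing factor genes in the DG, CA3 and CA1, grouped by family; points are limma estimates, bars are SEs and colours mark adjusted p under 0.05. SR and hnRNP genes lie mostly right of 0, with 22 higher calls over all families in the DG, and Rbfox3 and Celf4 lie left of 0 in every panel.

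Counted by gene, 3 were called higher in all 3 subregions (Srsf1, Srsf3 and Hnrnpa3) and 2 were called lower in all 3 (Rbfox3 and Celf4). Over all genes, 4.24% were called higher in all 3 and 4.45% lower in all 3, so the counts of 3 and 2 lie near those shares. Another 13 genes were called higher in 2 subregions and 4 lower in 2 (Sf3a2, U2af2, Rbfox2 and Nova2). None of these genes was called higher in one subregion and lower in another, and 18 were called in none, Sf3b6 among them. How many of all genes were called in 2 subregions, in opposite directions or in none was not counted, so these counts have no share to be set against. In no subregion did the 12-month and 5-month values of any of these genes separate without overlap. For some genes, given below, most older rats still lay beyond every younger rat. Over all genes tested, such separation was found for 0.0275% in the DG, 0.0470% in CA3 and 0.0204% in CA1. Finding none among these genes is near those shares.

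Among the 11 SR protein genes, 5 were higher at 12 months in the DG and none lower, 4 were higher and 1 lower in CA3, and 6 were higher and none lower in CA1. In all genes tested, the shares called higher were 18.5%, 10.9% and 12.4%, and those called lower 18.5%, 10.8% and 12.8%. The median difference of the 11 was 0.24 (log2) in the DG, 0.14 in CA3 and 0.23 in CA1, against 0.01, 0.00 and 0.00 for all genes. Srsf3 encodes the smallest SR protein, which also links splicing to export of mRNA. In CA3 its lowest, median and highest normalized counts were 1530, 1720 and 2108 at 12 months, against 1264, 1427 and 1561 at 5 months. Of the 16 older rats, 15 lay above every younger rat, and the 2 ages overlapped only through the lowest older value. The difference was 0.29 ± 0.05 (SE, log2; limma adjusted p = 0.000114).

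Srsf3 reached 1661 (1215 to 2095) at 12 months and 1399 (1095 to 1632) at 5 months in the DG, given as the median with the lowest and highest. In CA1 it stood at 1601 (1310 to 1942) at 12 months and 1318 (1070 to 1547) at 5 months. The ages overlapped in both subregions, with 14 of 16 older rats above the younger median in the DG and 15 of 16 in CA1. The log2 differences were 0.26 ± 0.08 (adjusted p = 0.0136) and 0.27 ± 0.07 (adjusted p = 0.00521). RefSeq lists 10 pseudogenes named after Srsf3, and no source used here says how reads shared with such copies were counted.

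Srsf1 encodes the founding SR protein, which binds exonic enhancers. In the DG it had 1206, 2028 and 2509 as lowest, median and highest count at 12 months, against 934, 1820 and 2015 at 5 months, a log2 difference of 0.28 ± 0.11 (adjusted p = 0.0454). The differences were 0.16 ± 0.05 in CA3 (adjusted p = 0.0173) and 0.23 ± 0.06 in CA1 (adjusted p = 0.00904), and the ages overlapped in each subregion. In the DG the call lay close to the threshold.

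Srsf10, which represses splicing when dephosphorylated after heat shock, had the largest estimate of the SR genes in the DG. Its lowest, median and highest counts there were 134, 225 and 320 at 12 months, against 129, 156 and 231 at 5 months, and 15 of 16 older rats lay above the younger median. The difference was 0.49 ± 0.11 in the DG (adjusted p = 0.00118), while 0.16 ± 0.06 in CA3 (adjusted p = 0.0635) and 0.29 ± 0.12 in CA1 (adjusted p = 0.0768) did not pass. Srsf6 and Srsf5 also encode enhancer-binding SR proteins. Srsf6 was called in CA3 (0.19 ± 0.06, adjusted p = 0.0198) and CA1 (0.29 ± 0.06, adjusted p = 0.00259), and its DG estimate of 0.31 ± 0.13 did not pass (adjusted p = 0.0608). Srsf5 was called in CA3 (0.16 ± 0.05, adjusted p = 0.0109) and CA1 (0.18 ± 0.04, adjusted p = 0.00596) and not in the DG (0.24 ± 0.13, adjusted p = 0.156). The DG estimates of both were larger than those of CA3 and CA1, with wider SEs. For none of Srsf5, Srsf6 and Srsf10 did the test of the difference between subregions pass, the lowest adjusted p being 0.0849 for Srsf10 between the DG and CA3.

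The spread of Srsf5 in the DG was wide, from 1883 to 3934 at 12 months and from 1337 to 3705 at 5 months. Srsf11 was called in the DG (0.21 ± 0.08, adjusted p = 0.0426) and CA1 (0.25 ± 0.06, adjusted p = 0.00293). Srsf7, an SR gene that falls outside the rule for named genes and was added after its values were seen, was called in the same 2 subregions, at 0.35 ± 0.10 (adjusted p = 0.00752) and 0.23 ± 0.07 (adjusted p = 0.0155). The lower call among SR genes, also added afterwards, was Srsf4 in CA3. It had a median of 1115 (904 to 1373) at 12 months against 1277 (1073 to 1364) at 5 months (−0.16 ± 0.05, adjusted p = 0.0269), and adjusted p was 0.0825 without the 3 CA3 libraries farthest from their group. Srsf2, Srsf9 and Srsf12 were called in no subregion.

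The 17 hnRNP genes gave 11 higher and no lower calls in the DG, 5 higher and 1 lower in CA3, and 5 higher and none lower in CA1. Of all genes, 18.5%, 10.9% and 12.4% were higher in the 3 subregions and 18.5%, 10.8% and 12.8% lower. The median difference of the 17 was 0.31 (log2) in the DG, 0.08 in CA3 and 0.17 in CA1, against 0.01, 0.00 and 0.00 for all genes. Hnrnpa2b1, which binds RNA elements that direct transport into dendrites, had the largest positive estimate of the 55 genes in the DG and in CA1. Its lowest, median and highest counts in the DG were 778, 1312 and 1781 at 12 months, against 597, 793 and 1515 at 5 months. In CA1 they were 977, 1343 and 1698 at 12 months, against 703, 1045 and 1400 at 5 months. In both, 15 of 16 older rats lay above the younger median and the ages overlapped.

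The log2 difference of Hnrnpa2b1 was 0.59 ± 0.14 in the DG (adjusted p = 0.00176) and 0.38 ± 0.10 in CA1 (adjusted p = 0.00595). It was 0.13 ± 0.07 in CA3 (adjusted p = 0.180), where the median was 1369 (1120 to 1654) at 12 months and 1261 (1063 to 1629) at 5 months. In the DG the estimate came almost wholly from the second run: 1.09 there (adjusted p = 2.34e-06) against 0.16 in the first (adjusted p = 0.597). In the plot of values per library, the low 5-month values are mostly those of second-run rats.

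Hnrnph2 and Hnrnpf belong to a subgroup that binds runs of G. Hnrnph2 had the smallest p of the higher genes in the DG, with lowest, median and highest counts of 822, 1109 and 1454 at 12 months, against 679, 774 and 1131 at 5 months. All 16 older rats lay above the younger median, and 5 lay above every younger rat. The log2 difference was 0.40 ± 0.08 (adjusted p = 0.000599), and the estimates of 0.11 in CA3 and 0.09 in CA1 did not pass (adjusted p = 0.159 and 0.392). Hnrnpf was likewise called only in the DG by the test (0.24 ± 0.06, adjusted p = 0.0017), with 0.17 ± 0.07 in CA1 just short (adjusted p = 0.0534).

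**Figure D2:**
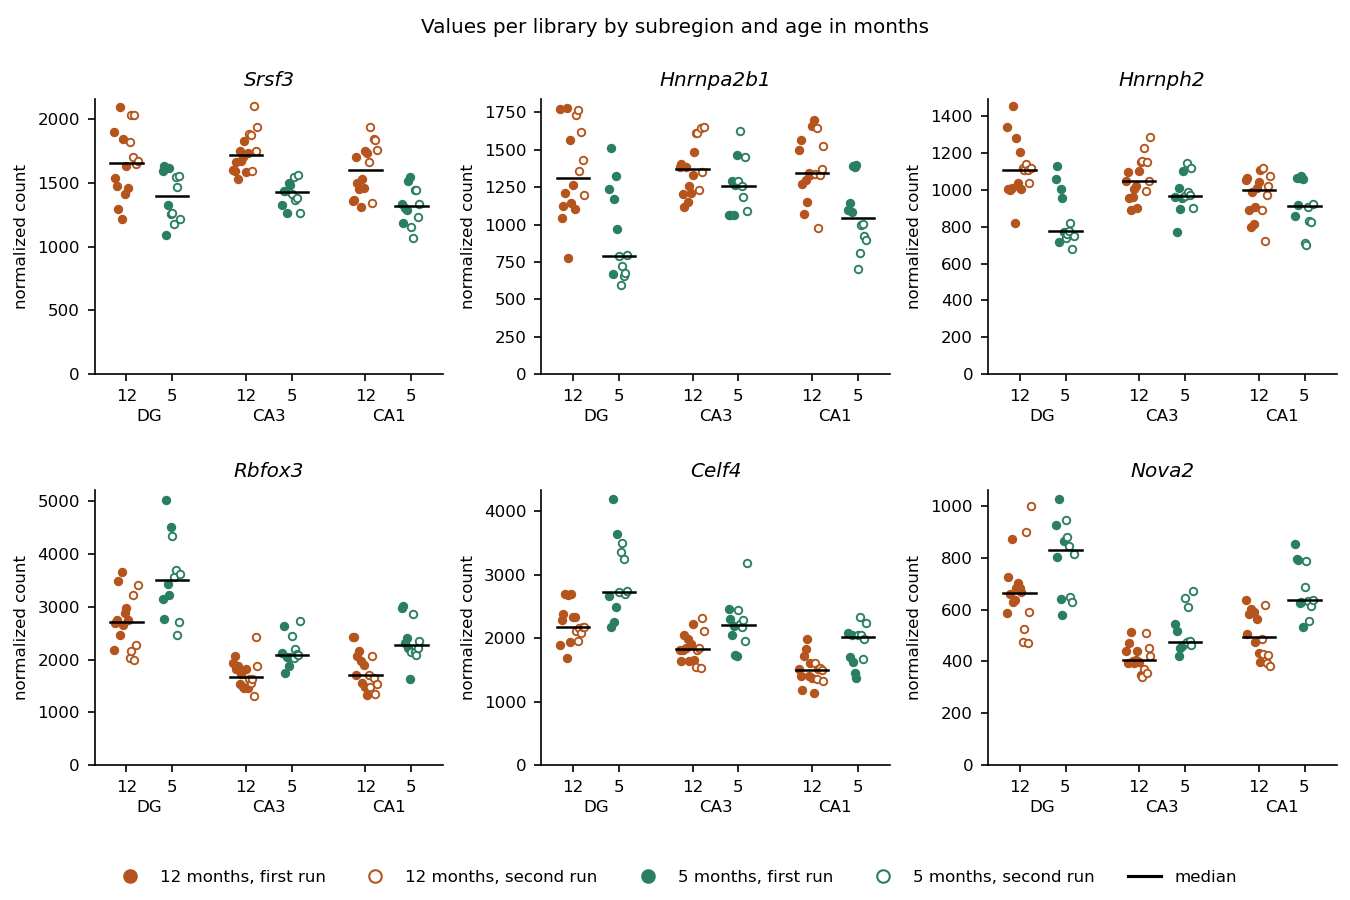
Normalized count per library (y axis, linear from 0) of 6 splicing factor genes in each subregion, with 12 months left of 5 months; filled points are the first run of animal numbers, open points the second, and lines are medians. Srsf3 in CA3 has a median of 1720 at 12 months and 1427 at 5 months, and Rbfox3, Celf4 and Nova2 have lower medians at 12 months in every subregion.

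Hnrnpa1, the gene of the best known exon-repressing hnRNP, was higher at 12 months in the DG and CA1. Its DG counts were 1919, 2129 and 2934 (lowest, median, highest) at 12 months and 1349, 1747 and 2588 at 5 months, with all 16 older rats above the younger median (0.31 ± 0.09, adjusted p = 0.00591). In CA1 the difference was 0.18 ± 0.07 (adjusted p = 0.0415). RefSeq lists 51 pseudogenes named after Hnrnpa1, more than for any other of the 56 genes, so its counts are uncertain where reads could be shared. Hnrnpa3, a close relative added after its values were seen, was called in all 3 subregions, at 0.42 ± 0.13 in the DG (adjusted p = 0.0160), 0.30 ± 0.09 in CA3 (adjusted p = 0.0139) and 0.31 ± 0.10 in CA1 (adjusted p = 0.0212). Its medians at 12 and 5 months were 207 and 145 in the DG, 220 and 181 in CA3, and 197 and 160 in CA1, with overlapping ages in each.

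Hnrnpll, known for repressing exons of CD45 in T cells, was called in the DG (0.37 ± 0.09, adjusted p = 0.00243) and CA3 (0.24 ± 0.06, adjusted p = 0.00861). Its CA1 estimate of 0.25 ± 0.10 did not pass (adjusted p = 0.0601). Hnrnpdl, a relative of Hnrnpd, was called in the DG (0.36 ± 0.08, adjusted p = 0.00123), with estimates of 0.01 in CA3 and 0.08 in CA1 that did not pass. The lower call among hnRNP genes was Hnrnpm in CA3, where all 16 older rats lay below the younger median: 874, 1264 and 1387 (lowest, median, highest) at 12 months against 1127, 1459 and 1540 at 5 months. Its difference was −0.25 ± 0.06 in CA3 (adjusted p = 0.00681), −0.24 ± 0.11 in CA1 (adjusted p = 0.102) and 0.11 ± 0.09 in the DG (adjusted p = 0.349). Hnrnpc, Hnrnpl and Hnrnpul1 were called in no subregion.

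The subunits that recognise the branch point and 3′ splice site did not move as 1 group. Of the 8 SF3A and SF3B genes tested, 2 were higher and 2 lower in the DG, 1 was higher in CA3, and 1 was higher and 1 lower in CA1. Of all genes, 18.5% were higher and 18.5% lower in the DG, 10.9% and 10.8% in CA3, and 12.4% and 12.8% in CA1. For 8 genes, these counts lie near those shares. Sf3b1, the large subunit that clamps the branch-point helix and is often mutated in human myelodysplastic disease, was higher in the DG and CA3. Its DG counts were 2458, 4302 and 5631 (lowest, median, highest) at 12 months and 1833, 3415 and 4255 at 5 months (0.44 ± 0.11, adjusted p = 0.00377). In CA3 the median was 3826 (2869 to 4324) at 12 months against 3281 (3004 to 3698) at 5 months, and 12 of 16 older rats lay above every younger rat (0.17 ± 0.05, adjusted p = 0.0105). In CA1 the estimate of 0.14 ± 0.06 did not pass (adjusted p = 0.0697).

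Sf3a2, a subunit of the SF3A trimer that joins the U2 snRNP, was lower. In the DG it had 273, 407 and 585 at 12 months against 451, 564 and 680 at 5 months (lowest, median, highest), and 12 of 16 older rats lay below every younger rat (−0.47 ± 0.10, adjusted p = 0.0012). The difference was −0.31 ± 0.10 in CA1 (adjusted p = 0.0242) and −0.19 ± 0.07 in CA3 (adjusted p = 0.0662). Sf3b4, which contacts RNA near the branch point, was lower in the DG, with a median of 727 (631 to 981) at 12 months against 911 (786 to 1092) at 5 months, and 13 of 16 older rats below every younger rat (−0.29 ± 0.06, adjusted p = 0.000776). In CA3 and CA1 its estimates were 0.05 and −0.02, with adjusted p = 0.558 and 0.904. Sf3a3, named after its values were seen, was higher in the DG (0.18, adjusted p = 0.0259) and CA1 (0.16, adjusted p = 0.0174).

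U2af2 encodes the large U2AF subunit, which binds the polypyrimidine tract. It was lower in the DG, where all 16 older rats lay below the younger median: 1755, 1962 and 2343 at 12 months against 1927, 2368 and 2791 at 5 months (−0.24 ± 0.05, adjusted p = 0.00129). All 16 also lay below the younger median in CA1, at 1826 (1570 to 2084) at 12 months against 2086 (1759 to 2242) at 5 months, with a difference of −0.17 ± 0.05 (adjusted p = 0.0173), and the CA3 estimate of −0.09 did not pass (adjusted p = 0.0918). U2af1, the small subunit that reads the final AG of the intron, and its relative U2af1l4 were called in no subregion.

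Rbfox3, which encodes the neuronal nuclear antigen NeuN, was lower at 12 months in all 3 subregions. In the DG its lowest, median and highest counts were 1983, 2718 and 3657 at 12 months, against 2466, 3502 and 5034 at 5 months. In CA3 they were 1315, 1672 and 2421 at 12 months, against 1743, 2093 and 2728 at 5 months, and in CA1 they were 1335, 1714 and 2434 at 12 months, against 1640, 2268 and 3025 at 5 months. The ages overlapped in each subregion, and 15, 15 and 14 of the 16 older rats lay below the younger median in the DG, CA3 and CA1. The log2 differences were −0.38 ± 0.10 (adjusted p = 0.00613), −0.34 ± 0.07 (adjusted p = 0.00216) and −0.40 ± 0.10 (adjusted p = 0.00451), and RefSeq places 5 other genes over Rbfox3, and no source used here names the strand used in counting.

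Rbfox3 is 1 of the 8 neuron markers used to check the tissue. Of the 8, 4 were lower and 2 higher in the DG, 2 were lower in CA3, and 2 were lower and 1 higher in CA1. Tubb3, a neuronal tubulin, was lower in all 3 (−0.38, −0.24 and −0.34), while Snap25, a protein of synaptic vesicle fusion, was higher in the DG (0.25) and CA1 (0.21). In units of 1000 normalized counts, the sum of the 8 had a median of 124 (114 to 141) at 12 months and 129 (119 to 172) at 5 months in the DG, 165 (131 to 180) and 164 (147 to 189) in CA3, and 108 (98.3 to 133) and 109 (101 to 130) in CA1. Its part in the Rbfox3 difference was not tested.

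Rbfox2 was lower at 12 months in CA3, with all 16 older rats below the younger median (600, 789 and 914 at 12 months against 821, 935 and 1010 at 5 months; −0.24 ± 0.06, adjusted p = 0.00417), and in CA1 (−0.27 ± 0.08, adjusted p = 0.0191). In the DG its estimate was 0.05 ± 0.06 (adjusted p = 0.467). Rbfox1, the member of the family active in neurons and muscle, passed in none, with estimates of −0.13, −0.11 and 0.05 in the DG, CA3 and CA1.

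Celf proteins bind GU-rich RNA. Celf4, whose loss causes seizures in mice, was lower in all 3 subregions. Its DG counts were 1689, 2167 and 2693 (lowest, median, highest) at 12 months and 2176, 2730 and 4182 at 5 months, with all 16 older rats below the younger median (−0.40 ± 0.09, adjusted p = 0.000915). In CA1 they were 1133, 1500 and 1979 at 12 months and 1364, 2016 and 2335 at 5 months, again with all 16 below (−0.33 ± 0.08, adjusted p = 0.00633), and in CA3 the difference was −0.25 ± 0.07 (adjusted p = 0.0135).

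Celf2 was lower in CA3 alone by the test (−0.24 ± 0.05, adjusted p = 0.00149), where all 16 older rats lay below the younger median of 1761. Its estimates were 0.01 in the DG and −0.12 in CA1. Celf5 was lower in the DG (−0.18 ± 0.06, adjusted p = 0.0154), with −0.13 in CA3 and −0.17 in CA1 that did not pass. No Celf gene was called higher anywhere, and Celf1, Celf3 and Celf6 were called in no subregion. Since 18.5%, 10.9% and 12.4% of all genes were called higher in the DG, CA3 and CA1, no higher call among 6 genes is near those shares.

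The Nova genes, whose KH-domain proteins control exons of synaptic genes, moved in opposite directions. Nova2 in CA1 had 382, 496 and 637 at 12 months against 534, 636 and 855 at 5 months, with 9 of 16 older rats below every younger rat (−0.43 ± 0.09, adjusted p = 0.00181). In CA3 it was lower by −0.31 ± 0.07 (adjusted p = 0.00392), and in the DG −0.25 ± 0.10 did not pass (adjusted p = 0.0517). Nova1 was higher in the DG, at 479 (402 to 632) at 12 months against 385 (346 to 565) at 5 months, with all 16 older rats above the younger median (0.30 ± 0.07, adjusted p = 0.00193). Its estimates of 0.07 in CA3 and 0.14 in CA1 did not pass.

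Ptbp1 and Ptbp2 encode repressors of neuronal exons, the first mostly outside neurons and the second in young neurons. In the DG, Ptbp1 was lower at 736 (600 to 1000) at 12 months against 867 (773 to 1028) at 5 months, with 11 of 16 older rats below every younger rat (−0.22 ± 0.06, adjusted p = 0.00612). Ptbp2 was higher at 902 (748 to 1058) at 12 months against 794 (578 to 915) at 5 months, with 7 of 16 above every younger rat (0.24 ± 0.06, adjusted p = 0.00313). Ptbp3 was higher too (0.29 ± 0.11, adjusted p = 0.0328). None of the 3 was called in CA3 or CA1.

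Mbnl proteins favour adult splice forms and are sequestered by repeat RNA in myotonic dystrophy. Mbnl2 was higher in the DG (0.25 ± 0.08, adjusted p = 0.0172) and CA3 (0.16 ± 0.06, adjusted p = 0.0369) and not called in CA1 (0.10, adjusted p = 0.394). Its DG median was 2383 (1537 to 2939) at 12 months against 2004 (1669 to 2445) at 5 months. Mbnl1 was called in none.

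Within each subregion, each gene called over all rats had the same direction in both runs, 29 of 29 in the DG, 18 of 18 in CA3 and 18 of 18 in CA1. The calls were made on these same rats, so the shared direction is not an independent check. Some first-run estimates also lay close to 0. Within the first run, limma called 0 of the 55 genes in the DG (15 at an unadjusted p under 0.05), against 0.172% of all genes, 0.145% higher and 0.0275% lower. In CA3 it called 2 higher and 1 lower there, against 2.11% and 2.72% (4.83% in all), and in CA1 1 and 1, against 1.68% and 1.51% (3.19%). Within the second run it called 22 higher and 7 lower in the DG, against 23.9% and 23.0% of all genes (46.9% in all), 4 and 6 in CA3, against 8.43% and 8.10% (16.5%), and 19 and 9 in CA1, against 16.8% and 17% (33.8%). For the average over subregions the first run gave 8 higher and 10 lower, against 8.54% and 9.85% (18.4%), and the second 24 and 15, against 29.1% and 29.0% (58.1%), with 33 of the 34 genes called over all rats in the same direction in both. The other was Hnrnpul2, named for this result, at 0.27 in the second run and −0.007 in the first. Of the genes called over all rats, 0 of 29 in the DG, 3 of 18 in CA3 and 1 of 18 in CA1 passed within the first run, and 27, 9 and 16 within the second.

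A term for a different age effect in the 2 runs, added after the data were seen, passed for 5 of the 55 genes in the DG (6.15% of all genes), 0 in CA3 (4 at an unadjusted p under 0.05; 0.577% of all genes) and 3 in CA1 (3.24%). The 5 in the DG, picked by this result, were Hnrnpa2b1, Hnrnpa3, Hnrnpd, Hnrnpul2 and Rbfox2. Hnrnpd, which binds AU-rich RNA, differed with age by 0.76 in the second run and 0.02 in the first, and Hnrnpa3 by 0.87 and 0.01. Rbfox2 went the other way, its age effect being 0.31 lower (log2) in the second run (adjusted p = 0.0426). Srsf1 and Nova1 in the DG had estimates of 0.26 and 0.20 in the second run and 0.34 and 0.40 in the first, and the term passed for neither (adjusted p = 0.854 and 0.427).

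**Figure D3:**
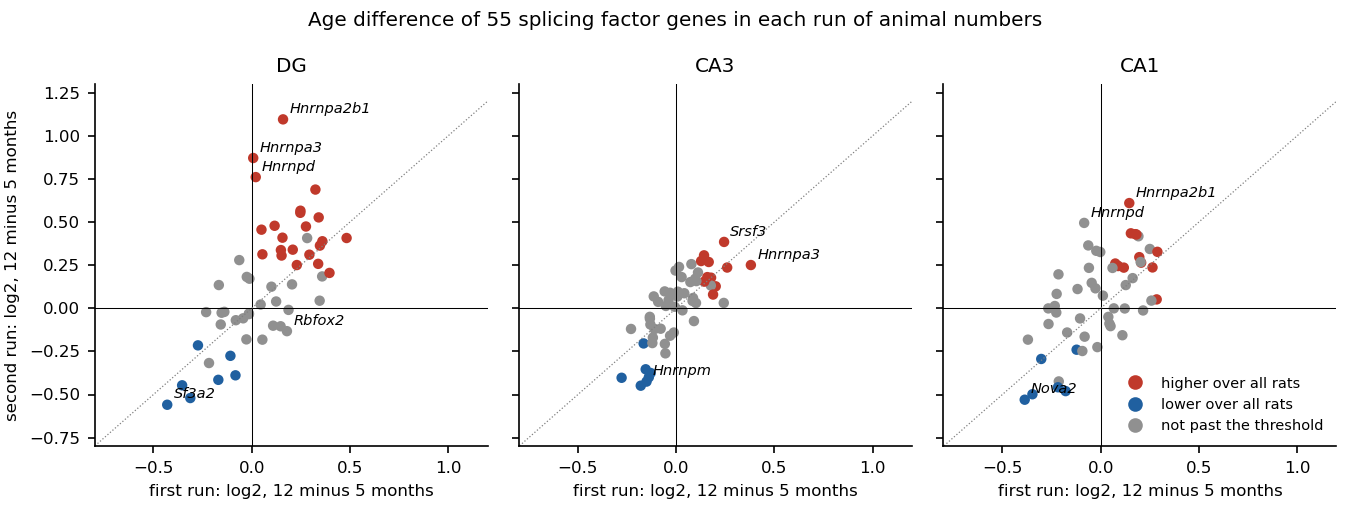
Age difference (log2, 12 minus 5 months) of 55 splicing factor genes within the first run (x axis) and the second run (y axis) of animal numbers, in each subregion; the dotted line marks equal values and colours mark calls over all rats. All coloured points lie at the lower left or upper right of the 0 lines, and in the DG Hnrnpa2b1, Hnrnpa3 and Hnrnpd lie near 0 in the first run and at 1.09, 0.87 and 0.76 in the second.

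Mitochondrially encoded genes took 7.96 ± 1.25% of reads at 12 months and 7.06 ± 2.64% at 5 months in the DG (SD), 9.04 ± 1.36% and 7.59 ± 1.56% in CA3, and 11.6 ± 1.81% and 8.54 ± 2.43% in CA1. With this share as a covariate, the calls were 23 higher and 9 lower in the DG, against 17.5% and 17.3% of all genes (34.8% in all), 8 and 9 in CA3, against 6.43% and 7.32% (13.8%), and 1 and 1 in CA1, against 2.34% and 2.61% (4.95%). The share of all genes called in CA1 thus also dropped; it was 25.2% without the covariate. The direction of every gene called without the covariate was kept in these 3 fits, and the median size of the called differences was 0.30 with it and 0.31 without it in the DG, 0.21 and 0.22 in CA3, and 0.13 and 0.26 in CA1. In units of 1000 counts, the sum of 8 microglia markers was 6.71 (6.14 to 20.8) at 12 months and 5.86 (4.95 to 6.39) at 5 months in CA3, 7.13 (6.36 to 28.7) and 6.40 (5.65 to 7.04) in CA1, and 4.98 (4.25 to 8.20) and 5.03 (4.21 to 6.55) in the DG. In the DG, the sum of 6 endothelial and mural markers was 3.47 (2.63 to 4.40) at 12 months and 4.44 (3.26 to 4.86) at 5 months, with 3 of the 6 lower, and that of 6 markers of oligodendrocyte precursors was 3.34 (2.64 to 4.33) and 3.84 (2.93 to 4.27), with 3 lower and 1 higher. The precursor sums had medians of 6.96 and 7.54 in CA3, with 2 lower, and 5.28 and 6.12 in CA1, with 3 lower. The endothelial and mural sums had medians of 3.6 and 3.92 in CA3 and 4.73 and 5.34 in CA1, with 1 lower in each. None of the endothelial, mural and precursor markers was higher in CA3 or CA1. Of the 8 microglia markers, 2 were higher in the DG, 7 in CA3 and 4 in CA1, and none was lower. The part of these cell types in the age differences was not tested.

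Whether the age effect itself differed between subregions was tested within each rat. Between the DG and CA3, 7 of 55 genes passed, 6 with a more positive effect in the DG and 1 with a more negative one, against 2.73% of 14378 genes (1.35% and 1.38%). Hnrnph1 (0.43 ± 0.12), Hnrnpm (0.36 ± 0.09), Hnrnpdl (0.34 ± 0.09), Hnrnpa1 (0.34 ± 0.09), Rbfox2 (0.30 ± 0.06) and Celf2 (0.25 ± 0.06) had a more positive age effect in the DG, and Sf3b4 (−0.34 ± 0.07) a more negative one. Hnrnph1, which binds G runs like Hnrnph2, lies outside the rule for named genes and was added after its values were seen. Their adjusted p-values ran from 0.0181 for Rbfox2 to 0.0451 for Hnrnpdl and Hnrnpa1. Without 3 libraries in each subregion that stood farthest from their group, Sf3b4 alone passed (−0.38, adjusted p = 0.0236). In the DG these were replicates 3 and 6 at 5 months and 6 at 12 months, and in CA3 replicates 12 at 5 months and 14 and 15 at 12 months. That fit called 2.01% of all genes. Within the first run limma called 0 of the 55 (10 at an unadjusted p under 0.05) and 0.00696% of all genes, so nothing can be read from that 0. Within the second run it called 7 of the 55 and 5.26% of all genes. These were not the same 7: only 3 of them (Hnrnpm, Hnrnpa1 and Hnrnph1) were also called over all rats. The 7 called over all rats kept their direction in both runs, which are parts of those same rats.

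Between the DG and CA1, limma called 0 of the 55 genes (14 at an unadjusted p under 0.05), against 0.607% of 14340 genes, and the lowest adjusted p was 0.0716, for Rbfox2. Between CA3 and CA1 it called 0 (5 at an unadjusted p under 0.05), as it did for all 14513 genes. The age effects that passed in the DG and not in CA1, such as those of Hnrnph2 and Nova1, were thus not shown to differ between these subregions.

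The level of the neuronal regulators differed between the subregions, and mostly the DG was highest. For this comparison whole reads were recovered and scaled jointly as CPM, because the 3 tables had been normalized separately, and differences were taken within each rat and tested with limma. Between the DG and CA3, 35 of the 55 genes were higher in the DG and 2 lower, against 35.8% and 35.8% of 14291 genes (71.5% in all). Between the DG and CA1, 26 were higher in the DG and 6 lower, against 33.4% and 30.9% (64.3%). Between CA3 and CA1, 9 were higher in CA3 and 29 lower, against 30.9% and 31.3% (62.2%). On the values as deposited, the split was 26 and 9 for the DG against CA3, where all genes split 3767 and 6567 in place of 5110 and 5114, and 16 and 14 for CA3 against CA1, where all genes split 6274 and 2991 in place of 4412 and 4478.

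All 3 Rbfox and all 6 Celf genes were higher in the DG than in CA3 and than in CA1, though Rbfox2 against CA3 came to 0.01 on the values as deposited (adjusted p = 0.685). Rbfox1 had 412, 475 and 670 CPM in the DG (lowest, median, highest of 28 rats), against 247, 344 and 427 in CA3 and 255, 308 and 416 in CA1. It was higher in the DG in all 28 rats against either, by 0.48 ± 0.04 (SE, log2; adjusted p = 5.61e-12) and 0.59 ± 0.04 (adjusted p = 6.08e-13). A change of 1 direction in all 28 rats was found for 16.0% of genes between the DG and CA3 and 11.1% between the DG and CA1.

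Rbfox3 stood at 168 CPM (114 to 286) in the DG, 101 (70.7 to 147) in CA3 and 118 (74.5 to 173) in CA1, with a difference of 0.75 ± 0.06 between the DG and CA3 in 28 of 28 rats, the largest of the 55 genes there. Celf2 had the largest difference between the DG and CA1, at 0.70 ± 0.05 in 28 of 28 rats, with 118 CPM (95.4 to 142) in the DG against 74.9 (50.8 to 92.2) in CA1. The 2 ranges did not overlap, but how many of all genes separate in this way was not counted. In CA3 it stood between, at 87.3 CPM (63.9 to 108). Celf6 and Celf5 had another order, with CA3 lowest: Celf6 had 17.8 CPM (12.8 to 23.2) in the DG, 10.95 (7.21 to 14.02) in CA3 and 14.6 (11.8 to 19.4) in CA1.

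**Figure D4:**
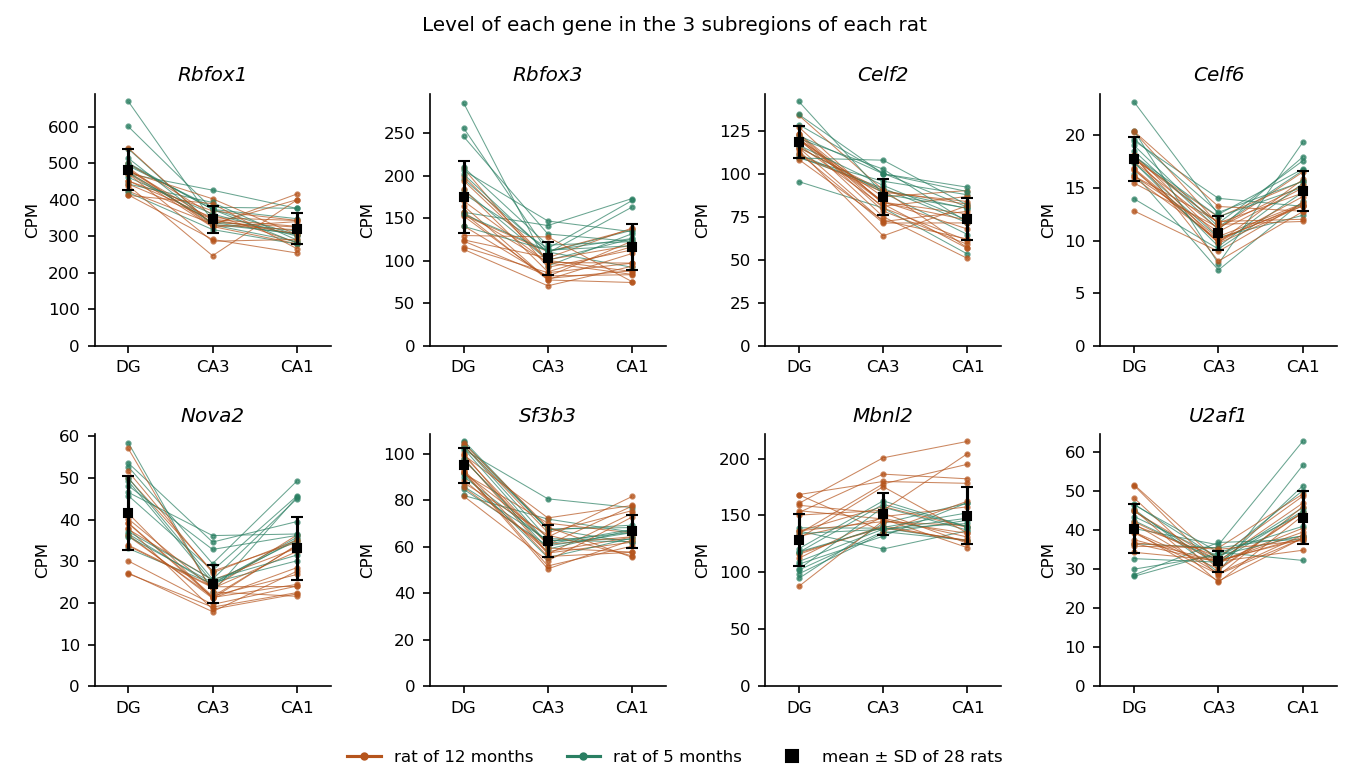
CPM (y axis, from 0) of 8 splicing factor genes in the DG, CA3 and CA1 of each rat, joined by a line; squares are means and bars SDs of 28 rats. Rbfox1, Rbfox3, Celf2 and Sf3b3 are highest in the DG, Celf6 and Nova2 are lowest in CA3, and Mbnl2 is lowest in the DG.

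Nova2 had 39.2 CPM (27.02 to 58.5) in the DG, 24.1 (17.9 to 36.2) in CA3 and 33.8 (21.6 to 49.2) in CA1, so CA3 was lowest, in 28 of 28 rats against the DG (0.74 ± 0.05) and in 27 of 28 against CA1. Nova1 did not follow it: between the DG and CA3 its difference was −0.05 ± 0.04 (adjusted p = 0.301), and it was lower in the DG than in CA1 (−0.16 ± 0.06, adjusted p = 0.0146). Ptbp2 was higher in the DG than in CA1 (0.44 ± 0.05, adjusted p = 5.88e-09) and CA3 (0.21 ± 0.04), and Ptbp1 was not called against either. Mbnl2 ran the other way, with 131 CPM (87.8 to 168) in the DG, 146 (121 to 201) in CA3 and 141 (122 to 215) in CA1, and was lower in the DG in 23 of 28 rats against each.

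Among the general factors, Sf3b3, a scaffold subunit of SF3B, had 95.3 CPM (81.9 to 106) in the DG, 61.9 (50.6 to 80.7) in CA3 and 66.1 (55.5 to 81.7) in CA1. The DG range overlapped neither of the others, since its lowest rat lay just above their highest, and the differences were 0.60 ± 0.03 and 0.51 ± 0.04, each in 28 of 28 rats. The share of all genes with such separate ranges was not counted. All 8 SF3A and SF3B genes tested were higher in the DG than in CA3, and 6 of the 8 were higher than in CA1; on the values as deposited Sf3b1 against CA3 came to 0.06 (adjusted p = 0.397). U2af1 was lowest in CA3, with 32.0 CPM (26.6 to 36.8) against 42.3 (32.2 to 62.7) in CA1 (−0.42 ± 0.05 in 27 of 28 rats). Srsf9 and Srsf6 were lower in CA3 than in CA1 (−0.37 ± 0.05 and −0.26 ± 0.04), and 7 of the 11 SR genes in all were lower there and 1 was higher. Of all genes, 31.3% were lower and 30.9% higher. The count depends on the joint scaling. On the values as deposited, Srsf1, Srsf2, Srsf4 and Srsf5 came to −0.0006, −0.04, −0.04 and −0.07. Srsf11, Srsf6 and Srsf9 came to −0.11, −0.17 and −0.305 there.

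Summed marker counts of other cell types differed between the libraries beside these results, on scales set separately for each table. In units of 1000 counts, each on its own table's scale, the sum of 8 markers of mature oligodendrocytes had medians of 71.7 at 12 months and 78.3 at 5 months in the DG, 283 and 292 in CA3, and 170 and 203 in CA1. That of 5 dentate granule cell markers had medians of 14.1 at 12 months and 14.5 at 5 months in the DG, 2.71 and 3.02 in CA3, and 3.28 and 2.67 in CA1. At 12 and 5 months, the sum of 5 CA1 pyramidal cell markers had medians of 4.74 and 5.73 in the DG. In CA3 they were 9.06 and 9.82, and in CA1 35.1 and 42. In single DG libraries this sum ran from 1.86 to 11.7 at 12 months and from 2.48 to 15.9 at 5 months. For 4 CA3 pyramidal cell markers the medians were 7.35 and 7.63 in the DG, 13.1 and 13.1 in CA3, and 2.58 and 2.66 in CA1. Whether these sums play a part in the subregion or age differences was not tested.

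Some of the subregion differences had unlike sizes at the 2 ages. Rbfox2 was higher in the DG than in CA1 by 0.33 in rats of 12 months and differed by −0.003 in those of 5 months, and against CA3 the values were 0.23 and −0.07. The test of this difference between ages, given above, did not pass against CA1 (adjusted p = 0.0716) and passed against CA3 (adjusted p = 0.0181). Celf2 exceeded CA3 in the DG by 0.57 at 12 months and 0.31 at 5 months. Rbfox1 gave 0.47 and 0.48 for the same contrast.

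Other genes of the splicing machinery were taken from 11 lists of 173 genes. In the DG, 58 of 165 tested were higher and 18 lower at 12 months, in CA3 27 and 17 of 164, and in CA1 32 and 13 of 164. As shares these were 35.2% and 10.9% in the DG, 16.5% and 10.4% in CA3, and 19.5% and 7.93% in CA1, against 18.5% and 18.5%, 10.9% and 10.8%, and 12.4% and 12.8% of all genes tested. Several of the single lists were at or under those shares. The 19 SR-related genes gave 11 higher and 2 lower in the DG, 6 and 4 in CA3 and 6 and 2 in CA1. Tra2a, a partner of SR proteins at purine-rich enhancers, was higher in all 3 (0.33, 0.22 and 0.31 in the DG, CA3 and CA1), and Srrm3 (−0.26 in the DG, −0.16 in CA3) and Srrm4 (−0.37 in CA3, −0.38 in CA1), which promote neuronal microexons, were lower. Of 6 kinases of SR proteins tested, Clk1 (0.63, 0.30 and 0.38), Clk4 (0.59, 0.22 and 0.50) and Srpk2 (0.17, 0.13 and 0.16) were higher in all 3 subregions, and Srpk1 was lower in CA3 (−0.11) and CA1 (−0.16). The 11 other U2 snRNP genes gave 6 higher and none lower in the DG, none higher and 1 lower in CA3, and 3 higher and none lower in CA1.

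Among the rest, the 6 U1-linked genes gave 2 higher and 1 lower in the DG, 2 and 0 in CA3 and 1 and 0 in CA1, with Prpf39, which joins U1 to the 5′ splice site, higher in all 3 (0.71, 0.34 and 0.54). The 9 minor spliceosome genes gave 5, 1 and 0 higher in the DG, CA3 and CA1 and none lower. For the 9 SMN complex genes, which assemble snRNPs, 2, 0 and 4 were higher and none lower. The 15 Sm and LSm genes tested gave 2 higher and 2 lower, 1 and 0, and 4 and 0, and the 15 tri-snRNP genes 2 and 3, 0 and 2, and 1 and 1. The 22 catalytic-step genes gave 10 and 2, 6 and 3, and 1 and 2. The 15 genes of the exon junction complex and decay gave 3 and 1, 2 and 3, and 5 and 2, and of 43 further hnRNP-like and neuronal regulators listed, 12 higher and 7 lower of 38 tested, 6 and 3 of 37, and 4 and 5 of 37. Genes named from these lists were chosen after their values were seen.

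The libraries held 14.9 to 21.8 M reads for the DG, 15.7 to 21.8 M for CA3 and 14.4 to 23.4 M for CA1, and no 2 libraries of a group agreed within sampling noise. Of the 56 genes, 18 have pseudogenes named after them in RefSeq and 21 overlap another gene there. No source used here gives the strand or the handling of reads that match several places, so values of those genes can include reads of a copy or a neighbour.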

How the data were processed

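Bulk polyA RNA of 84 libraries was measured by sequencing on an Ion platform kit. Build rn6, DESeq2 3.5, Partek and STAR 2.5.3a are named, per the submitters' processing notes, with no order or settings; annotation and strand are not given. The deposited values are a signal: each library's gene counts over a single size factor, as the values show. Of values up to 1000 reads, 100% lay within 0.1 of a whole read, and whole reads were recovered by undoing the factor. One CA3 column headed by an animal number alone was assigned to that rat.

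A gene was kept when 12 or more of a subregion's 28 libraries reached 10. Its log2(value + 1) entered limma 3.58.1 (R 4.3.3; empirical Bayes with trend, 2-sided), with p Benjamini-Hochberg adjusted over all genes, at 0.05. Averages and differences over subregions were taken within a rat, paired by the animal number in the titles. Subregions were compared on log2(CPM + 0.5) from recovered reads with joint TMM factors from edgeR 4.0.16 and age as a centred covariate. The count tests of edgeR and DESeq2 1.42.0 on recovered reads were alternatives. The scripts were tested on simulated data.

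Named genes are, by rule, up to 4 per direction with the smallest p per age comparison, up to 4 per difference of the age effect, the 4 largest per direction between subregions, and 9 fixed genes; others are marked. The members and lists were chosen with earlier results of these data known. Promoter sequences were matched by symbol.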

Additional observations from a re-analysis of the deposited data

Results flagged for a closer look

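The age effect of 7 of the 55 genes differed between the DG and CA3 by the test of the difference itself, taken within each rat. The differences of the log2 age effect (DG minus CA3) were 0.2954 for Rbfox2, -0.3443 for Sf3b4, 0.2474 for Celf2, 0.3558 for Hnrnpm, 0.426 for Hnrnph1, 0.3426 for Hnrnpdl and 0.3366 for Hnrnpa1. Hnrnph1 and Hnrnpa1 were higher at 12 months in the DG (0.42 and 0.31), with CA3 estimates of −0.00 and −0.02. Rbfox2, Celf2 and Hnrnpm were lower in CA3 (−0.24, −0.24 and −0.25), with DG estimates of 0.05, 0.01 and 0.11. Sf3b4 was lower in the DG (−0.29), with 0.05 in CA3. With the 3 most distant libraries of each subregion left out, the adjusted p was 0.0585 for Rbfox2, 0.0236 for Sf3b4, 0.0893 for Celf2, 0.116 for Hnrnpm, 0.119 for Hnrnph1, 0.0796 for Hnrnpdl and 0.131 for Hnrnpa1.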

How the results depend on the processing

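The first run of animal numbers alone gave 0 calls among the 55 genes for age in the DG, 3 in CA3, 2 in CA1, 18 for the average and 0 for the DG against CA3, where all rats gave 29, 18, 18, 34 and 7. The second run alone gave 10 in CA3, 28 in CA1, 1 for the difference between the DG and CA1 (0 over all rats) and 18 between the levels of CA3 and CA1 (38 over all rats). A term for run gave 1 for the difference between the DG and CA1. The mitochondrial share as a covariate gave 2 in CA1. Without the far libraries, 1 passed for the DG against CA3. Rats of 5 months alone gave 23 calls in place of 37 between the DG and CA3 and 25 in place of 38 between CA3 and CA1. The cause of these changes was not tested.

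Some estimates changed sign. Among the named genes, between the DG and CA1, Hnrnpdl gave 0.006251 in the second run (-0.13 over all rats) and Rbfox2 -0.002914 in rats of 5 months. Between the DG and CA3, Hnrnph2 gave -0.143 in the second run, Hnrnpf -0.07515 on the values as deposited, and Hnrnpdl -0.0289, Sf3b1 -0.009391 and Rbfox2 -0.07234 in rats of 5 months. Between CA3 and CA1, Hnrnpa2b1 gave -0.163 in the first run (0.03 over all rats). Outside the named genes, 3 called values changed sign: between CA3 and CA1, Hnrnpd gave 0.05 and Srsf4 0.10 in the second run (-0.13 each over all rats), and the average of Hnrnpul2 gave -0.007 in the first run. Sign changes of values not called in either fit are not listed.

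The libraries were paired by rat, and a fit with no replicate block gave 5 calls in place of 7 for the age effect in the DG against CA3, with 31, 37 and 36 in place of 32, 37 and 38 for the levels. Pseudocounts of 0.5 and 5, filters, TMM, median of ratios, quantile normalization, edgeR and DESeq2 kept each count for age within 1.5 times, edgeR giving 28, 17 and 20 and DESeq2 31, 19 and 21 in the DG, CA3 and CA1. With 14.4 to 23.4 M reads per library the tested genes were well counted, and Sf3b6 was too low to test.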

Other observations

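Averaged over each rat's 3 subregions, the largest positive differences with age were those of Hnrnpa2b1 (0.37), Hnrnpa3 (0.34) and Srsf10 (0.32). In the second run these were 0.64, 0.52 and 0.45, and in the first 0.14, 0.19 and 0.20, where none passed and Hnrnpll and Srsf1 stood at 0.26 each. The largest negative ones were those of Rbfox3 (−0.37), Nova2 (−0.33), Celf4 (−0.33) and Sf3a2 (−0.32). All 6 Celf and all 3 Rbfox genes had an average below 0, of which 3 and 2 passed the test. Of all 14291 genes, 7017 had an average below 0, and 24.6% passed as lower. In the first run Celf1, Celf2, Celf3 and Celf6 lay near 0 (−0.005, −0.01, −0.04 and −0.01), against −0.13, −0.23, −0.17 and −0.17 in the second. Celf4 and Celf5 gave −0.22 and −0.14 in the first run. Sf3b4, called in the DG, averaged −0.08 (limma adjusted p = 0.0502).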
